A study of Mus musculus with 14 samples.

Results

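RNA levels of 10 genes of fibroblast growth factor (FGF) signalling were followed in differentiating mouse embryonic stem (ES) cells: the ligand genes Fgf3, Fgf4, Fgf5, Fgf8, Fgf15 and Fgf17 and the receptor genes Fgfr1, Fgfr2, Fgfr3 and Fgfr4. They were taken by name, through array probe sets that the platform annotation assigns to a single symbol, and are 10 of 19938 genes measured. Each of the 10 had 1 such probe set. The study used 14 Affymetrix arrays of embryoid bodies (EBs), the aggregates in which ES cells differentiate, to read the response to ER71/Etv2 and GATA2 6, 12 and 24 h after induction. Doxycycline at 1 µg/ml, given from day 2, switched on the factors in the ES cell line iEGS. Untreated EBs were collected on day 2.25 (1 array), day 2.5 (3 arrays) and day 3 (3 arrays), and induced EBs on the same days, at 6 h (1 array), 12 h (3 arrays) and 24 h (3 arrays).

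In the groups of 3 arrays, replicates 1 and 2 are labelled iEGS and replicate 3 is labelled iB1, a line of which the labels say nothing more. The single arrays of day 2.25 are iEGS. The untreated arrays carry the genotype label wild-type although their source is the same lines without doxycycline. Titles and genotype labels of the induced arrays name Scl (Tal1) as a further factor, whereas the descriptions name only ER71/Etv2 and GATA2. The ES cells had been kept on mouse embryonic fibroblast feeders before differentiation, and cells given doxycycline without inducible factors were not analysed here. Whether each line is 1 clone is not given in the labels, and the series' design text states independent experiments without saying which arrays each one gave. The p-values measure the spread between these arrays.

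Most FGFs are secreted proteins that bind receptor tyrosine kinases on the cell surface together with heparan sulfate. The active receptors signal through adaptor proteins to the ERK pathway. Genes switched on by this pathway include the ETS factors Etv4 and Etv5 and the feedback inhibitors of the Sprouty and Dusp families. In the early mouse embryo Fgf4 is made by the inner cell mass, Fgf5 is a marker of the epiblast, and Fgf8 is needed for cells to move away from the primitive streak, where mesoderm forms.

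Values are log2 signals and are given below in the order of replicates 1, 2 and 3. A probe set's signal depends on its own probes, so levels are compared between groups and never between genes. The arrays correlated with each other at Pearson r between 0.951 and 0.995, and the 24 h array of replicate 3 had the lowest mean r, 0.966. Etv2, Gata2 and Tal1 were higher on every induced array than on the untreated arrays of the same day, with differences of group means from 1.94 to 4.44 on the log2 scale. A difference was called at an adjusted p under 0.05 in limma, with Benjamini-Hochberg adjustment over all 19938 genes.

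Ligand RNA was lower in induced EBs for 4 of the 6 ligand genes at both 12 h and 24 h, 1 ligand gene was higher at 12 h, and no receptor gene passed the test. At 12 h 5 of the 10 genes were called, 1 higher and 4 lower, against 1.39% of all genes in either direction, 0.813% higher and 0.577% lower. At 24 h 4 of the 10 were called, all lower, against 5.46% of all genes in either direction and 3.43% lower. The 10 genes were chosen with earlier results of these data known, so these shares are not a test of the set. The median change over the 6 ligand genes was -0.68 at 12 h and -0.82 at 24 h, and over the 4 receptor genes 0.19 and 0.14, where the medians over all genes were -0.0087 and -0.0040. In whole EBs, fewer cells of a type and less RNA per cell cannot be told apart.

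**Figure D1:**
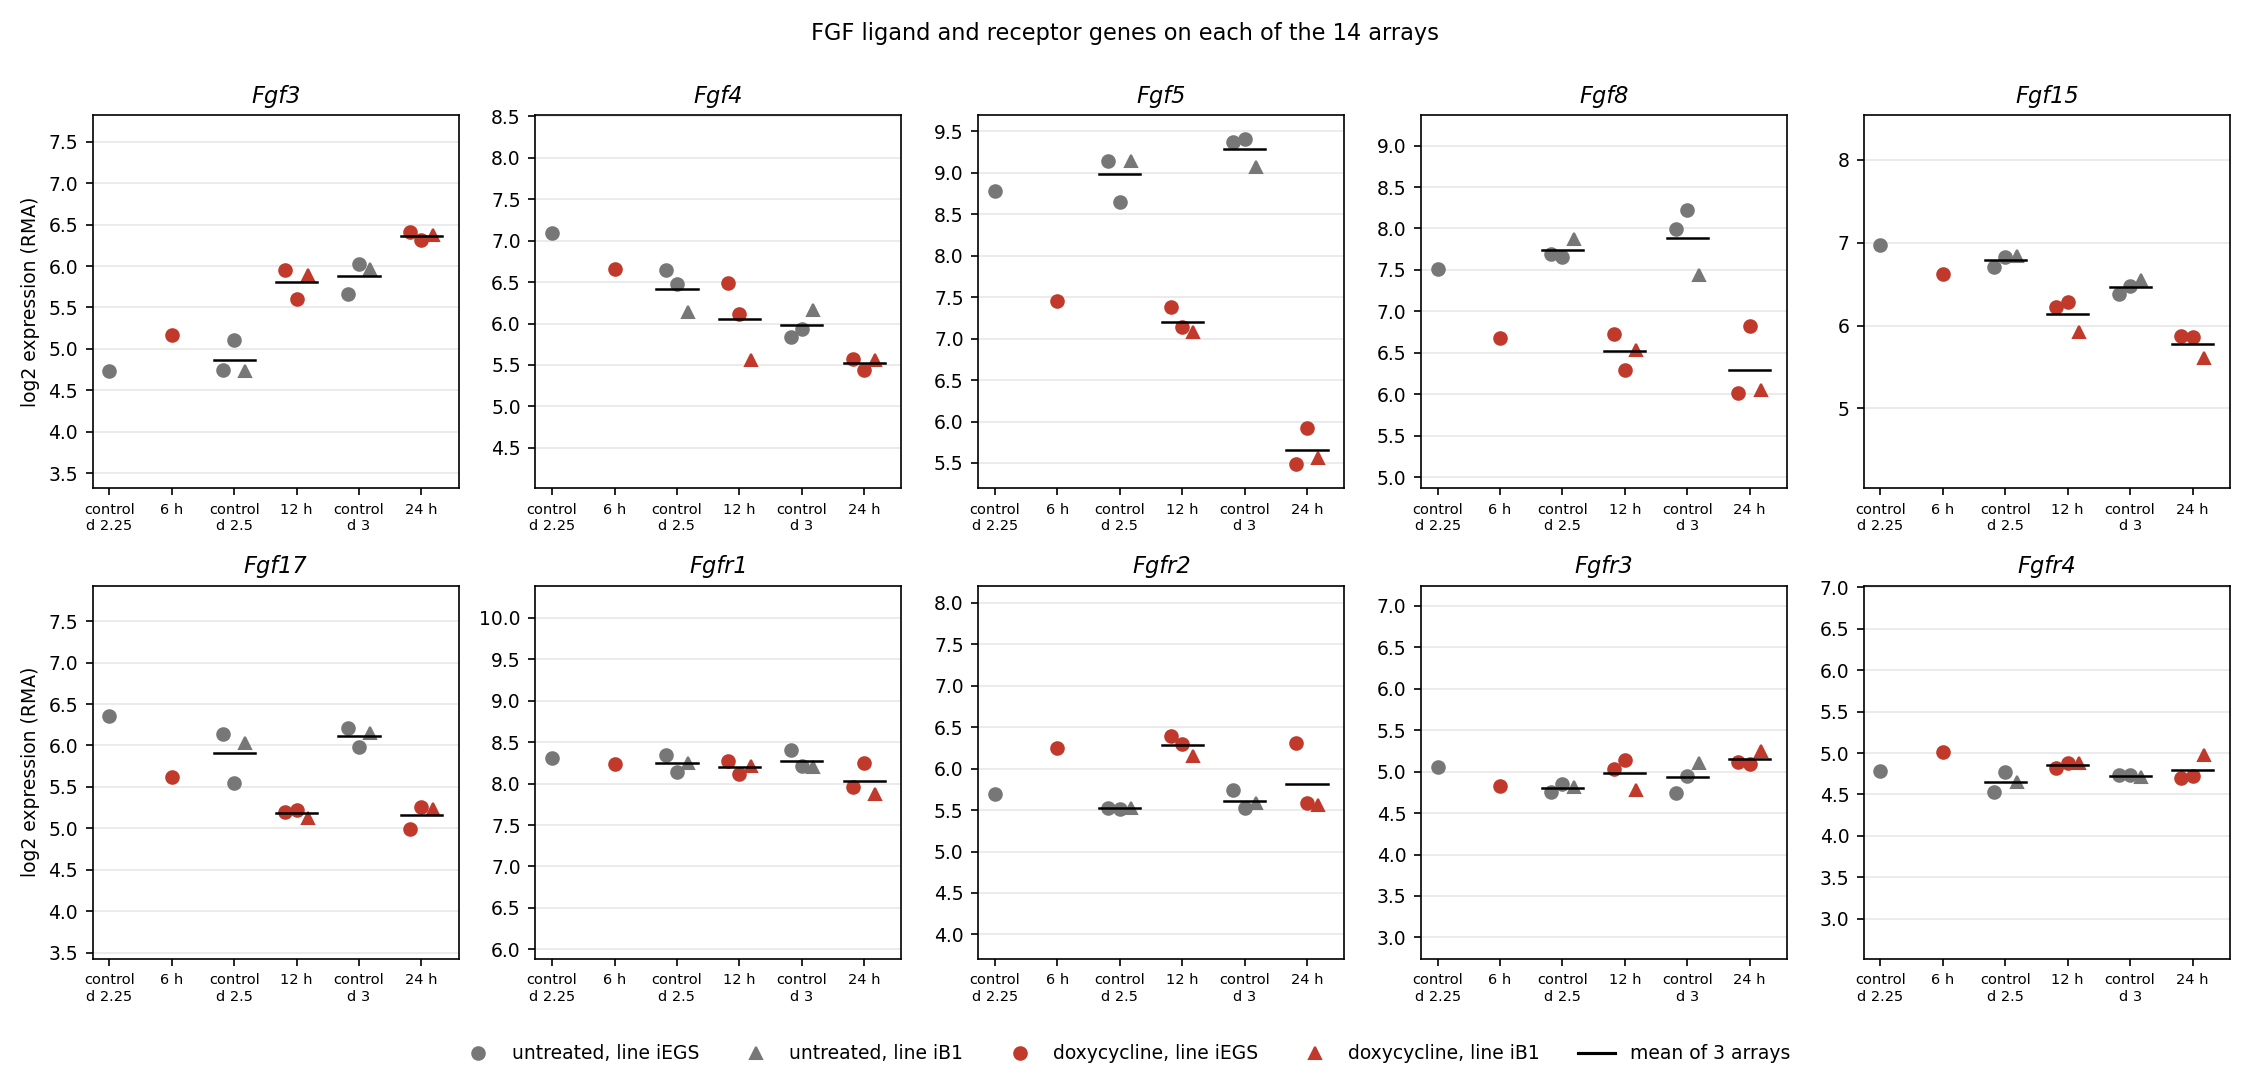
Log2 signal of each of the 10 FGF genes (y axis) on each of the 14 arrays, by group (x axis), with each array as a point (circles iEGS, triangles iB1, red with doxycycline, grey without) and the mean of each group of 3 arrays as a line. The Fgf5 points lie between 8.65 and 9.41 on the replicated untreated arrays and between 5.49 and 5.92 at 24 h of induction, while the Fgfr1 points lie between 7.87 and 8.40 on all arrays.

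Fgf5, the epiblast ligand, had the largest response of the 10 genes at each time. Its signal was 9.15, 8.65 and 9.14 on the untreated day 2.5 arrays and 7.38, 7.14 and 7.08 at 12 h of induction. On day 3 it was 9.37, 9.41 and 9.08 without doxycycline and 5.49, 5.92 and 5.56 at 24 h. Every induced array lay below every untreated array, and the 24 h arrays lay below the 12 h arrays. Fgf5 fell by 1.78 ± 0.176 (SE, 3 arrays against 3) at 12 h, a 3.43-fold difference (limma adjusted p = 6.23e-05). At 24 h it fell by 3.63 ± 0.176, a 12.4-fold difference (limma adjusted p = 2.27e-08). The effect at 24 h was larger than that at 12 h by a change of -1.85 ± 0.25 (limma adjusted p = 0.00455), and Fgf5 was the only one of the 10 genes called for this change, against 0.426% of all genes. Both Fgf5 calls were kept under all 26 alternative settings. The call of the change was lost without replicate 2 (adjusted p = 0.121) or without replicate 3 (adjusted p = 0.132), which leave 2 arrays per group.

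Promoter windows were read for genes at either end of this response: Fgf5, which fell most, Fgf3, the ligand gene that rose, and Fgfr2, the receptor gene nearest to the threshold. Each window holds 250 bases before and 50 bases after the start of transcription, taken from RefSeq (GRCm38.p6) and written 5′ to 3′ along the gene. Capitals mark matches, on either strand, to the ETS cores AGGAAG and, in its other form, CGGAAG, to the GATA site AGATAA, and to the E-box CAGCTG, of the kind bound by SCL. No match overlaps another. Fgf5 lies at chr5:98253934-98254233 on the plus strand, Fgf3 at chr7:144838362-144838661 on the plus strand, and Fgfr2 at chr7:130266759-130267058 on the minus strand.
Fgf5: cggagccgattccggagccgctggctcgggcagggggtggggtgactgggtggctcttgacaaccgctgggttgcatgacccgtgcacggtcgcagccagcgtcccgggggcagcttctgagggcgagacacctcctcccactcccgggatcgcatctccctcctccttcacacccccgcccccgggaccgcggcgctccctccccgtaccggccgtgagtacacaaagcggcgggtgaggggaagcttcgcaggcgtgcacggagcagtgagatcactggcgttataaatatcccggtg
Fgf3: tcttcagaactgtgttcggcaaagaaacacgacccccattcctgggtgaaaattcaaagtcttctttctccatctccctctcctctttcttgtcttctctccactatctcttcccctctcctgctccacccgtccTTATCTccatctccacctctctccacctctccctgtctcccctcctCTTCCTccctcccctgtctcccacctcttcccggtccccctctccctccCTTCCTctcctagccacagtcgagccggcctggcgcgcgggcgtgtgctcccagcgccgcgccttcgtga
Fgfr2: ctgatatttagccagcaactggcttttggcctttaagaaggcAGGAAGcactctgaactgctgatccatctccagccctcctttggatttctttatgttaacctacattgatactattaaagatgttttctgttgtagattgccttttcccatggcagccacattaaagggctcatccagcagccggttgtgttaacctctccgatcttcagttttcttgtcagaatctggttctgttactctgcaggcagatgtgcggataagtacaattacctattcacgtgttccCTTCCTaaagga
The Fgf5 window held none of the 4 motifs, which says only that these letters are not in this window. The Fgf3 window held AGGAAG at positions -69 and -20 from the start and the GATA letters at -115, all on the minus strand. The Fgfr2 window held AGGAAG at position -208 on the plus strand and at position 39 on the minus strand. Among 32851 RefSeq windows of the same length, 35.4% held AGGAAG and 16.9% its form with a leading C, while 11.2% held the GATA site and 16.3% the E-box. Windows were matched for 6 of the 10 genes; of the others matched, Fgf4 held no motif, Fgfr4 held 1 AGGAAG and 1 of the 2 Fgfr3 windows held 1 E-box. Fgf8, Fgf15, Fgf17 and Fgfr1 had no window. A match is a description of letters and not of binding.

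Fgf8, the streak ligand, was the second ligand gene by size of response at both times. It stood at 7.69, 7.66 and 7.87 on day 2.5 and at 6.73, 6.30 and 6.53 after 12 h of induction. On day 3 it was 7.99, 8.22 and 7.44 without doxycycline and 6.01, 6.82 and 6.05 at 24 h. The untreated and induced arrays did not overlap at either time, and replicate 2 was the highest of the 24 h arrays. Fgf8 fell by 1.22 ± 0.232 at 12 h, 2.33-fold (limma adjusted p = 0.0131), and by 1.59 ± 0.232 at 24 h, 3.01-fold (limma adjusted p = 0.000524). The change between the times was -0.37 with a 95% interval from -1.07 to 0.33, which did not pass the test. The 24 h call was kept under all 26 alternatives. The 12 h call was lost under 7 of them, among them without the day 2.5 untreated array of replicate 3 (adjusted p = 0.0806), without the 12 h array of replicate 2 (adjusted p = 0.0842) and without that of replicate 3 (adjusted p = 0.0588).

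Fgf17 belongs to the same FGF subfamily as Fgf8 and is likewise expressed in the primitive streak. Its signal was 6.13, 5.55 and 6.03 on day 2.5 and 5.20, 5.22 and 5.13 at 12 h of induction. Untreated day 3 arrays read 6.21, 5.98 and 6.15, and 24 h arrays 5.00, 5.26 and 5.23. All 6 induced arrays lay below all 6 untreated arrays, and the means at 12 h and 24 h were 5.18 and 5.16. The fall was 1.65-fold at 12 h (-0.72 ± 0.159, limma adjusted p = 0.0364) and 1.93-fold at 24 h (-0.95 ± 0.159, limma adjusted p = 0.00172). The 12 h call was lost under 15 of 26 alternatives, including without any of 9 of the 12 single arrays (adjusted p from 0.0541 to 0.195), and the 24 h call without replicate 3 (adjusted p = 0.0607).

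Fgf15, the mouse counterpart of human FGF19, is best known as an intestinal hormone and is also made in the early embryo. It read 6.70, 6.82 and 6.83 on day 2.5, then 6.22, 6.28 and 5.93 at 12 h of induction. It read 6.39, 6.47 and 6.55 on untreated day 3 and 5.87, 5.86 and 5.61 at 24 h. The 4 groups formed separate steps, from untreated day 2.5 through untreated day 3 and 12 h to 24 h, with no overlap between neighbours. Over the 10 genes, the arrays did not overlap for 2 between the untreated days, against 13.6% of all genes, and for 3 between the induced times, against 15.4%. Fgf15 fell 1.56-fold at 12 h (-0.64 ± 0.139, limma adjusted p = 0.0308) and 1.61-fold at 24 h (-0.69 ± 0.139, limma adjusted p = 0.00709). Neither the step between the untreated days (-0.32, adjusted p = 0.69) nor that between the induced times (-0.36, adjusted p = 0.282) passed the limma test. The 12 h call was lost under 13 of 26 alternatives, including without any of the 6 day 2.5 arrays or the untreated day 3 array of replicate 2 (adjusted p from 0.0554 to 0.21). The 24 h call was lost without replicate 2 (adjusted p = 0.151) or replicate 3 (adjusted p = 0.16).

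Fgf4, the ligand of the inner cell mass, passed no test. It was 6.64, 6.48 and 6.14 on day 2.5 and 6.48, 6.11 and 5.55 at 12 h of induction, with overlapping arrays. On day 3 it was 5.84, 5.93 and 6.16 without doxycycline and 5.57, 5.44 and 5.56 at 24 h, where the induced arrays all lay lower. The difference was -0.37 at 12 h, with a 95% interval from -0.81 to 0.07, and -0.45 at 24 h, from -0.90 to -0.01 (limma adjusted p = 0.911 and 0.293).

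Fgf3, a ligand needed for the development of the inner ear and tail, was the one ligand gene of the 6 that rose. Its signal was 4.74, 5.11 and 4.74 on day 2.5 and 5.95, 5.60 and 5.89 at 12 h of induction. Untreated day 3 arrays stood at 5.66, 6.03 and 5.96, and 24 h arrays at 6.41, 6.31 and 6.37. The 12 h arrays lay above the untreated arrays of their day and overlapped those of untreated day 3, while the 24 h arrays lay above all others. Fgf3 rose 1.93-fold at 12 h (0.95 ± 0.155, limma adjusted p = 0.00382). The difference at 24 h, 0.49 ± 0.155, missed the threshold (limma adjusted p = 0.102), with a 95% interval from 0.15 to 0.82, and passed it after a further quantile normalization of the arrays (adjusted p = 0.027). The 12 h call was lost without replicate 3 (adjusted p = 0.259). Fgf3, Fgf4 and Fgf15 are consecutive protein-coding genes on chromosome 7 in the RefSeq table, and at 12 h Fgf3 rose, Fgf15 fell and Fgf4 did not pass the test. The long non-coding RNA genes Gm26793 and Gm38605 overlap Fgf15 and Fgf17, and Gm31288 and Gm16159 overlap Fgfr1; whether their RNA adds to these probe sets was not tested.

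None of the 4 receptor genes was called at 12 h or 24 h in limma, and at an unadjusted p under 0.05 there was 1 at 12 h, Fgfr2, and 0 at 24 h, where 1387 and 3219 of the 19938 genes had such a p. Fgfr2, whose splice forms in epithelium and mesenchyme bind different ligands, read 5.53, 5.52 and 5.53 on day 2.5 and 6.39, 6.30 and 6.15 at 12 h of induction. On day 3 it read 5.74, 5.52 and 5.58 without doxycycline and 6.31, 5.58 and 5.56 at 24 h. The 12 h arrays lay above every untreated array, and at 24 h only replicate 1 did. The difference at 12 h was 0.76 ± 0.18, 1.69-fold, with a limma adjusted p of 0.0585. In a fit that held the replicate number as a block its adjusted p was 0.0138, so that 6 of the 10 genes were called against 2.21% of all genes. Fgfr2 at 12 h was called under 7 of the 26 alternatives, this one included. The others were quantile normalization (adjusted p = 0.0282), dim genes left out (0.0338), a fit of the compared groups only (0.0137), array weights (0.00152), and leaving out the 24 h array of replicate 1 (0.00265) or of replicate 3 (0.0355). At 24 h the difference was 0.20, with a 95% interval from -0.18 to 0.59, and -0.04 without the 24 h array of replicate 1.

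Fgfr1, the main receptor of the early epiblast and mesoderm, lay between 7.87 and 8.40 on all 14 arrays. Its difference was -0.04 at 12 h, with a 95% interval from -0.34 to 0.25, and -0.25 at 24 h, from -0.54 to 0.05. Fgfr3, a receptor known for its part in bone growth, lay between 4.74 and 5.25, with differences of 0.18 (-0.13 to 0.48) and 0.22 (-0.08 to 0.52). Fgfr4, which acts with the co-receptor beta-Klotho in the liver, lay between 4.53 and 5.01, with differences of 0.21 (-0.06 to 0.49) and 0.07 (-0.20 to 0.35). Its 12 h arrays lay above the untreated ones without passing the test, and its mean was under the level below which genes were left out in one alternative. In all, the arrays did not overlap for 7 of the 10 genes at 12 h, against 14.5% of all genes, and for 6 at 24 h, against 18.5%.

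**Figure D2:**
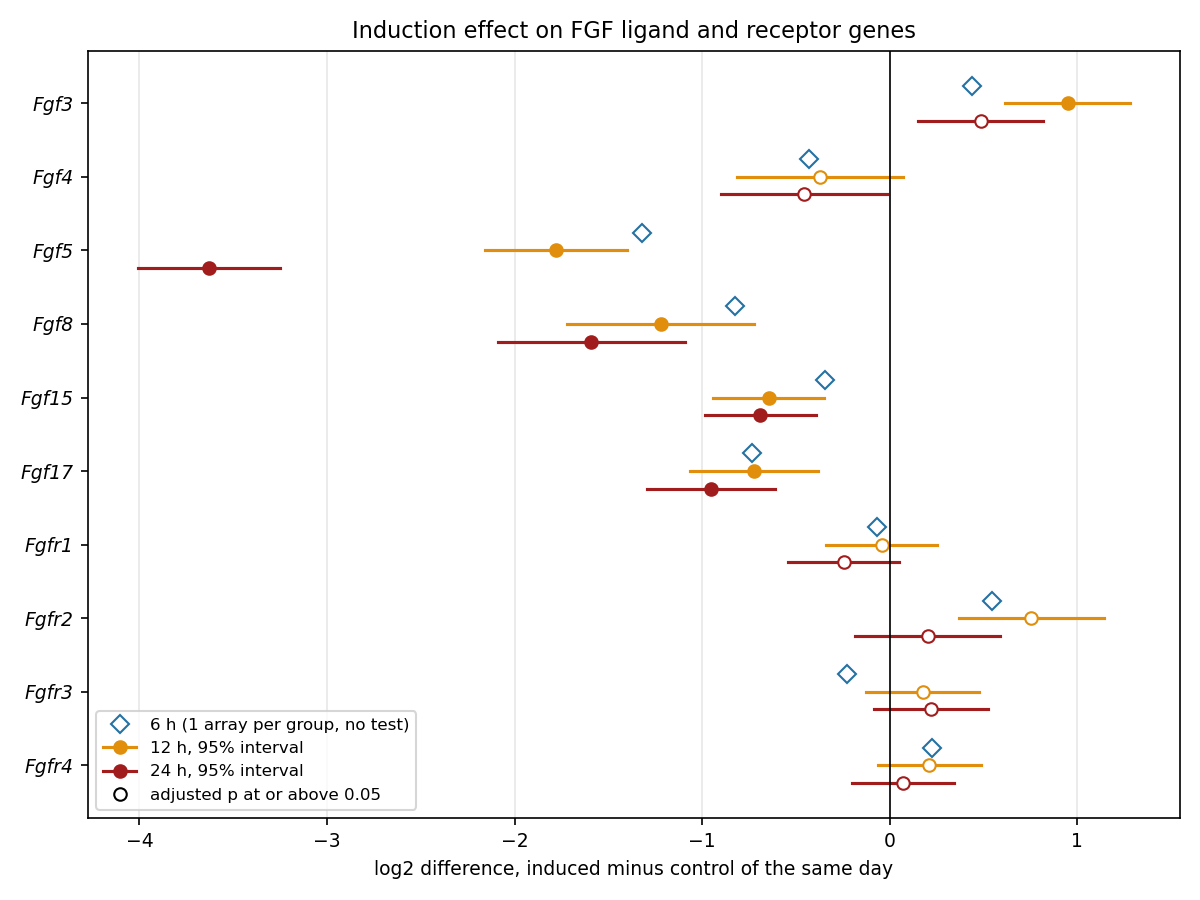
Log2 difference, induced minus untreated (axis in log2 units), for each FGF gene at 6, 12 and 24 h, with 95% intervals at 12 h and 24 h, and no interval at 6 h, where each group is 1 array; filled points have an adjusted p under 0.05. Fgf5 stands at -1.32, -1.78 and -3.63 at the 3 times, and the intervals of Fgfr1, Fgfr3 and Fgfr4 include 0 at 12 h and 24 h.

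The 6 h comparison rests on 1 array per group, so no test was made within it. In a limma fit over all 14 arrays, which assumes that the lone arrays vary like the replicated groups, 0 of the 10 genes were called at 6 h and Fgf5 had an adjusted p of 0.632. Fgf5 was 8.78 without doxycycline and 7.46 with it, a 2.50-fold lower signal. It was the only one of the 10 genes with a 2-fold difference, against 0.356% of all genes in either direction and 0.135% lower. Fgf8 was lower by a difference of -0.83, Fgf17 of -0.73, Fgf4 of -0.43 and Fgf15 of -0.35. Fgf3 (0.44) and Fgfr2 (0.55) were on the higher side, and Fgfr1, Fgfr3 and Fgfr4 differed by -0.07, -0.23 and 0.23. For comparison, the SD among replicates in the other groups was 0.221 for Fgf5 and between 0.1 and 0.329 over the 10 genes.

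Without doxycycline, Fgf3 was the only one of the 10 genes called between day 2.5 and day 3, against 0.757% of all genes. It rose 2.03-fold (1.02 ± 0.155, limma adjusted p = 0.0051), a call lost without replicate 2 (adjusted p = 0.121) or replicate 3 (adjusted p = 0.304). This comparison and that at 12 h share the day 2.5 untreated arrays: the Fgf3 means were 4.86 there, 5.81 at 12 h of induction and 5.88 on untreated day 3. Fgf5 differed by 0.30 between the untreated days, with a 95% interval from -0.07 to 0.68, and Fgf4 by -0.44 (-0.88 to -0.00083). From 12 h to 24 h of induction Fgf5 was the only one of the 10 called, against 1.81% of all genes, and fell by 1.55 ± 0.176 (limma adjusted p = 0.000546). Over the same interval Fgf3 differed by 0.55 (limma adjusted p = 0.108), Fgf4 by -0.53 (0.297) and Fgfr2 by -0.46 (0.29).

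Neither the line nor its interaction with induction was called for any of the 10 genes, or for any gene, in limma. At an unadjusted p under 0.05 there were 0 of the 10 genes for both terms, and 1528 and 519 genes in all. The Fgf5 effect in iB1 differed from that in iEGS by -0.13 ± 0.276, and the largest such difference among the 10 was that of Fgf15, -0.39 ± 0.192. As iB1 is replicate 3 in every replicated group, line and replicate number cannot be told apart. Fits without replicate 3 hold no iB1 array.

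The other genes of the pathway were counted in 4 lists. Measured were 16 other genes of the FGF family, with Fgf11, Fgf12, Fgf13 and Fgf14 among them. Of these 16, 1 rose at 12 h and 0 fell, where 1.39% of all genes were called. At 24 h 0 were called in limma, with 1 at an unadjusted p under 0.05 beside 3219 of the 19938 genes. The gene that rose was Fgf10, a ligand needed for limb and lung buds. It read 6.76, 6.36 and 6.52 on day 2.5 and 8.25, 7.59 and 8.03 at 12 h of induction, and then 8.25, 7.58 and 7.67 on untreated day 3 and 7.81, 7.66 and 7.11 at 24 h. Induced arrays were above untreated ones at 12 h and overlapped them at 24 h. Fgf10 rose 2.66-fold at 12 h (1.41 ± 0.229, limma adjusted p = 0.00368), a call lost without replicate 2 (adjusted p = 0.0844) or replicate 3 (adjusted p = 0.109). At 6 h it was higher by 1.41, on 1 array per group. Between the untreated days it rose by 1.29 (limma adjusted p = 0.0153), and its change of effect was -1.72 (limma adjusted p = 0.0312). Those calls were lost under 8 and 12 of 26 alternatives. Fgf2, a ligand widely used in cell culture, differed by 0.14 at 12 h and 0.21 at 24 h and was not called. Its group means, from 3.22 to 3.44, lay under 4.96, the level below which genes were left out in one alternative.

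Of 23 measured co-receptor, heparan sulfate and carrier genes, 3 fell and 0 rose at 12 h, and 7 fell and 1 rose at 24 h, with medians of -0.15 and -0.27. Over all genes, 0.577% fell and 0.813% rose at 12 h. At 24 h 3.43% of all genes fell and 5.46% were called in either direction. Sulf1, an enzyme that removes sulfate from heparan sulfate, fell by 1.51 ± 0.171 at 12 h and fell by 2.20 ± 0.171 at 24 h (limma adjusted p = 0.00021 and 1.57e-06). The glypican Gpc4 changed by -1.08 at 12 h and -1.92 at 24 h (limma adjusted p = 0.0285 and 8.78e-05), and the FGF carrier Fgfbp1 fell by 1.10 at 12 h (limma adjusted p = 0.0458). The 12 h calls of Gpc4 and Fgfbp1 were lost under 11 and 15 of 26 alternatives. At 24 h N-cadherin, Cdh2, which can bind FGF receptors, was lower than on untreated day 3 by 3.41 ± 0.224 (limma adjusted p = 4e-07). Its RNA also rose by 1.72 between the untreated days and fell by 0.98 from 12 h to 24 h of induction (limma adjusted p = 0.0016 and 0.0401). The syndecan Sdc3 rose by 1.29 ± 0.174 at 24 h (limma adjusted p = 0.000256). The 12 h count was 1 without any 1 of the 3 replicate numbers, and with the replicate block 4 genes fell and 1 rose at 12 h, against 2.21% of all genes called.

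Of 15 measured signal transducers, the adaptors and kinases between receptor and nucleus, 0 were called in limma at either time, with medians of -0.02 and -0.16. At an unadjusted p under 0.05 there were 2 of the 15 at 12 h and 3 at 24 h, beside 1387 and 3219 of the 19938 genes. With the replicate block 1 of the 15 rose at 12 h, and 1 rose and 1 fell at 24 h. Over all 19938 genes that fit called 441 at 12 h, and 610 higher and 955 lower at 24 h.

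Of 21 measured target and feedback genes of FGF and ERK signalling, 5 fell at 12 h and 10 at 24 h and 0 rose, with medians of -0.31 and -0.91. Over all genes, 0.577% fell at 12 h and 3.43% at 24 h. The ETS factor Etv1 changed by -1.64 ± 0.18 at 12 h and -2.85 ± 0.18 at 24 h (limma adjusted p = 0.000153 and 2.78e-07), and Etv5 by -1.50 ± 0.235 and -2.74 ± 0.235 (limma adjusted p = 0.00282 and 4.07e-06). Etv4 fell by 1.29 at 12 h (limma adjusted p = 0.00311). The feedback inhibitor Spry4 changed by -1.05 and -2.01 (limma adjusted p = 0.0218 and 2.95e-05), and Dusp6, a phosphatase that inactivates ERK, fell by 2.43 at 24 h (limma adjusted p = 1.57e-06). The 12 h call of Spry4 was lost under 8 of 26 alternatives, including without the untreated day 2.5 or the 12 h array of replicate 3, the untreated day 2.5 array of replicate 1 or the 12 h array of replicate 2 (adjusted p from 0.106 to 0.141). The 12 h count of this list was 1 without replicate 2 and 2 without replicate 3.

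**Figure D3:**
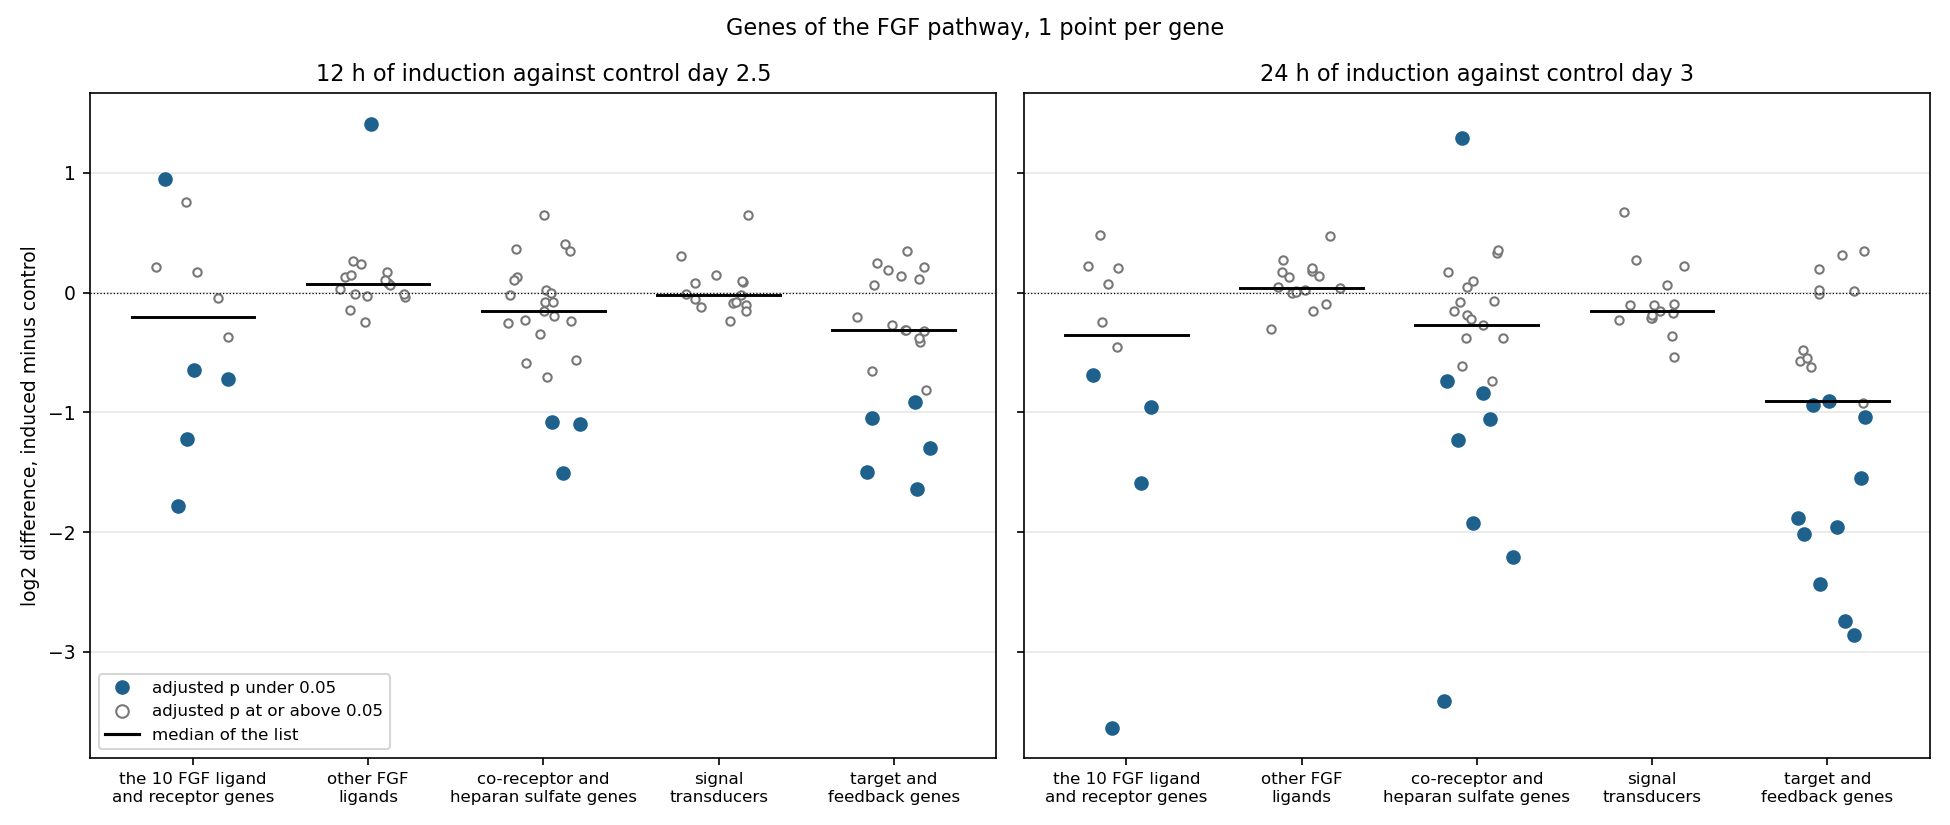
Log2 difference, induced minus untreated, at 12 h and 24 h for the measured genes of the FGF ligand and receptor sets and of the 4 other pathway lists, with each gene as a point, filled where the adjusted p is under 0.05, and the median of each list as a line. The median of the target and feedback genes lies at -0.31 at 12 h and -0.91 at 24 h, and that of the signal transducers at -0.02 and -0.16. The list labelled other FGF ligands holds other genes of the FGF family, with Fgf11, Fgf12, Fgf13 and Fgf14 among them.

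Markers of the cell types the EBs could hold were read beside these genes. Of 10 pluripotent and epiblast markers 2 fell at 12 h and 7 at 24 h, and the list's mean signal was 9.82 to 10.04 on untreated day 2.5 arrays, 9.33 to 9.52 at 12 h, 9.57 to 9.74 on untreated day 3 arrays and 8.21 to 8.72 at 24 h. Of 9 primitive streak markers 4 fell at 12 h and 8 at 24 h, with list means of 6.77 to 7.40, 5.85 to 6.24, 8.24 to 8.53 and 5.23 to 5.49 in the same order. The streak gene T (Brachyury), also on the target and feedback list, was not matched to a measured gene and is not among the 9. Of 11 endothelial and blood progenitor markers 10 rose at 12 h and 9 at 24 h, where 1.39% and 5.46% of all genes were called in either direction. These lists moved in the same comparisons as Fgf5, Fgf8, Fgf15 and Fgf17, and their part in the ligand results was not tested. The pluripotency marker Pou5f1 differed by -0.095 at 12 h (limma adjusted p = 0.999). It read 10.81 on average on untreated day 3 and 10.12 at 24 h (-0.68, limma adjusted p = 0.015). In the same list Nanog and Tdgf1 were called lower at both times, and Zfp42, Dppa5a and Lin28a at neither. Of 12 fibroblast feeder markers 0 were called at 12 h and 1, Thy1, rose at 24 h (0.98, limma adjusted p = 0.0342), with list means between 4.96 and 5.41 on all 14 arrays. Of 10 visceral endoderm and 8 neural markers 0 were called at 12 h, and at 24 h Rbp4 fell by 0.69 and Nes fell by 1.18 (limma adjusted p = 0.0243 and 0.0242). At an unadjusted p under 0.05 there were, at 12 h, 1 feeder, 2 visceral endoderm and 1 neural marker, beside 1387 of the 19938 genes.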

How the data were processed

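The deposited table holds log2 signals from the authors; the submitters' processing notes name RMA and Affymetrix Expression Console without versions. No raw intensities were used. Of 35556 probe sets, 21789 carried 1 symbol, 1621 several and 12146 none in the platform annotation. Per gene the probe set of highest mean was kept, giving 19938 genes. Group means over 12 arrays were fitted with limma 3.58.1 in R 4.3.3 (lmFit, eBayes, 8 residual degrees of freedom). The procedure was run on simulated data with known changes. Simulated arrays varied independently, so that run does not bear on deviations shared by arrays of the same replicate number. The 10 genes and all lists were chosen with earlier results of these data known. Named genes were the 10, the induced factors, Fgf2, up to 4 called genes of largest change per pathway list and time, and the 3 most similar genes per called member. Lists gave 135 of 143 distinct symbols. Same-numbered arrays of a day deviated together (r from 0.157 to 0.573, although replicate 2 on day 3 correlated better with another number, at 0.375), so the replicate number was also fitted as a block, as an alternative beside a line covariate, other normalizations and filters, array weights and left-out arrays. The number of arrays limits the precision.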

Additional observations from a re-analysis of the deposited data

Results flagged for a closer look

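The difference of Fgf5 between induced and untreated EBs was not the same at the 2 times with replicates: the effect at 24 h minus that at 12 h was -1.85 on the log2 scale (SE 0.25, limma adjusted p = 0.00455). All 3 induced arrays lay below all 3 untreated arrays at each time. The value stands here because the test of the difference between the times itself passed its threshold, and it did so for none of the other 9 genes.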

How the results depend on the processing

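The count of the 10 genes called at 12 h was 5. It was 2 with all probe sets in the fit and 2 at an adjusted p under 0.01, and 1 to 6 with arrays left out. At 24 h the count was 4, and 2 to 4 with arrays left out, the 2 without replicate 3. The counts of 1 for the change of effect and for the untreated days were 0 to 1 with arrays left out, the 0 without replicate 2 or replicate 3. Between the induced times the count of 1 became 2 after quantile normalization and 3 with array weights, and was 1 to 2 with arrays left out, the 2 without the 24 h array of replicate 1. The count over all genes, 360, became 445, 1496 and 727 under these 3 settings. The 1 gene with a 2-fold difference at 6 h was not called in a fit over all 14 arrays, where 0 of the 10 genes and 3 genes in all were called, and 2 of the 10 and 323 of all 19938 had an unadjusted p under 0.05. With the replicate block, 441 genes in place of 277 were called at 12 h and 1565 in place of 1088 at 24 h, and among the 10 genes the pairing changed only the 12 h call of Fgfr2 (adjusted p = 0.0138). None of the values that turned sign was called in the original setting. The change of effect of Fgf15 was 0.0094 after quantile normalization and 0.066 with array weights, which also gave 0.081 for Fgf8. Between the induced times Fgf17 gave 0.025 with each array centred on its median, and with array weights Fgf8 gave 0.212, Fgf17 0.067 and Fgfr1 0.0077. With 1 replicate number or array left out, the difference at 12 h ranged from -0.092 to 0.0095 for Fgfr1, and at 24 h from -0.042 to 0.332 for Fgfr2 and from -0.026 to 0.129 for Fgfr4. The change of effect ranged from -0.33 to 0.134 for Fgf4, from -0.152 to 0.041 for Fgf15 and from -0.059 to 0.137 for Fgfr3. The difference between the untreated days ranged from -0.067 to 0.436 for Fgf8 and from -0.034 to 0.082 for Fgfr1, and that between the induced times from -0.601 to 0.022 for Fgf8 and from -0.077 to 0.072 for Fgf17. Fgfr4 had no value with dim genes left out. Array weights were estimated gene by gene, a method chosen after the data were seen, as the default estimate did not converge. The weights of the 24 h arrays were 0.27, 3.33 and 0.318 for replicates 1, 2 and 3. Values at 24 h in that setting therefore rest mostly on replicate 2. The cause of the lost calls was not tested, except that fits without a replicate number hold fewer arrays. With 3 arrays per group, the 95% interval of Fgf4 at 12 h reached from -0.81 to 0.07, so the direction of its difference was not resolved. The distance to background on the arrays was not analysed here.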

Other observations

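For each FGF gene called at 12 h or 24 h, the 3 genes of most similar pattern were found by the lowest root mean square difference of log2 signals, each gene centred on its own mean, over the 14 arrays. For Fgf5 they were Epha1, Eomes and Etv1, at distances of 0.366, 0.392 and 0.413, where the root mean square of Fgf5 itself was 1.39. Epha1 differed by -1.69 at 12 h and -2.80 at 24 h, and Eomes by -0.90 and -3.08. For Fgf8 they were Apln, Fzd2 and Slit3, with Apln at a distance of 0.234 and differences of -1.31 and -1.85. For Fgf17 they were Mycn, Itgb8 and Fam53b, with Mycn at 0.179 and differences of -0.72 and -0.81. For Fgf15 they were Tnfrsf12a, Lhpp and Taf7, with Tnfrsf12a at 0.139. For Fgf3 they were Tnnt3, Rin3 and Vgll4, with Tnnt3 at 0.223 and Vgll4 differing by 0.97 at 12 h and 0.57 at 24 h. These genes were picked for their likeness in the same arrays, so no test was made of it.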
